A study of Mus musculus with 8 samples.

Results

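A set of 9 mouse genes that sit at the choice between glucose and fatty acids as mitochondrial fuel was examined: the mitochondrial carriers Ucp2 and Ucp3, the pyruvate dehydrogenase kinases Pdk1, Pdk2, Pdk3 and Pdk4, the pyruvate dehydrogenase phosphatase Pdp1, the carnitine palmitoyltransferase Cpt1a, and Angptl4, a secreted inhibitor of lipoprotein lipase. All 9 were found by symbol among the 35852 genes of the deposited count table. They were chosen by their role in fuel choice and with the counts of the corticosterone contrast in these same libraries in view, so their differences between the groups are described with their errors and are given no p-value. RNA was sequenced from bEnd3 cells, an immortalised endothelial line from mouse brain. For 24 h, cells of 4 libraries received 5 µM corticosterone, the main glucocorticoid of the mouse, and cells of the other 4 stayed in culture medium. Cells of both groups were grown in DMEM with calf serum. Corticosterone also stands in the treatment protocol given for the medium samples, no vehicle is named, and the groups follow the titles and the treatment labels. The labels do not say that the replicates were separate cultures, so errors and p-values measure the spread between these libraries, which may be technical.

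Pyruvate made from glucose enters the citric acid cycle through the pyruvate dehydrogenase complex. Pyruvate dehydrogenase kinases (PDKs) phosphorylate the complex and switch it off, and pyruvate dehydrogenase phosphatases switch it back on. Long-chain fatty acids enter mitochondria as carnitine esters made by CPT1, which malonyl-CoA inhibits. UCP2 and UCP3 are inner-membrane carriers named after UCP1, the proton carrier of brown fat, and UCP2 has been described as an exporter of small carboxylic acids such as malate and aspartate. Glucocorticoids and peroxisome proliferator-activated receptors (PPARs) are known to act on Pdk4 and Angptl4 in liver, muscle and fat. Brain endothelial cells are known for a high rate of glycolysis beside many mitochondria.

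The libraries held 1.97e+07 to 4.62e+07 estimated counts. The endothelial markers that were checked, among them Pecam1, Cdh5 and Cldn5, summed to 7940 to 8877 counts per 1000000 (CPM) in the 8 libraries. The leukocyte list stayed at or below 0.827 CPM and the adipocyte list at or below 0.523 CPM. Of the other lists, glia and neurons reached 0.975 CPM, pericytes and smooth muscle 3.12 CPM and fibroblasts 21.9 CPM. The fibroblast list differed between the groups, as given below. The glucocorticoid-responsive genes Fkbp5, Per1 and Tsc22d3 were higher with corticosterone by 2.77, 2.15 and 1.95 on the log2 scale. In a fit over 13272 genes with edgeR's quasi-likelihood test, 5337 genes (40.2%) passed an adjusted p of 0.05, 19.6% higher and 20.7% lower with corticosterone. Errors after ± are the SD over the 4 libraries of a group. The median absolute log2 fold change over all tested genes was 0.14. Corticosterone replicates 1 and 2 stand apart in their deposited effective lengths, which, for a reason that is not stated, were the transcript length plus 1 base. In the other 6 libraries these lengths were a median of 340.4 to 360.3 bases shorter than the transcript. Transcript assignments and per-length levels of some genes also stood apart in corticosterone replicates 1 and 2, so such values are compared in the other 6. Gene-level counts of some genes, among them Mdh1 and Gpx4, stood apart in these libraries too, as given below. Whether this comes from the effective length was not tested. As the samples are bulk RNA, fewer cells expressing a gene and less RNA per cell cannot be told apart.

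Of the 9 genes, 7 had enough counts to be tested, and Ucp3 and Pdk4 did not. By the threshold used for all genes, 4 of the 7 were called, beside 40.2% of all tested genes. Ucp2 and Pdk1 were past the threshold and higher, Pdk3 and Pdp1 were past it and lower, and Pdk2, Cpt1a and Angptl4 were not past it. The same 4 genes were those whose CPM did not overlap between the groups, as was so for 39.9% of all tested genes. Since the contrast was in view when the genes were chosen, nothing is read from these counts. The median log2 fold change of the 7 tested genes was -0.02, against -0.0048 over all tested genes.

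**Figure D1:**
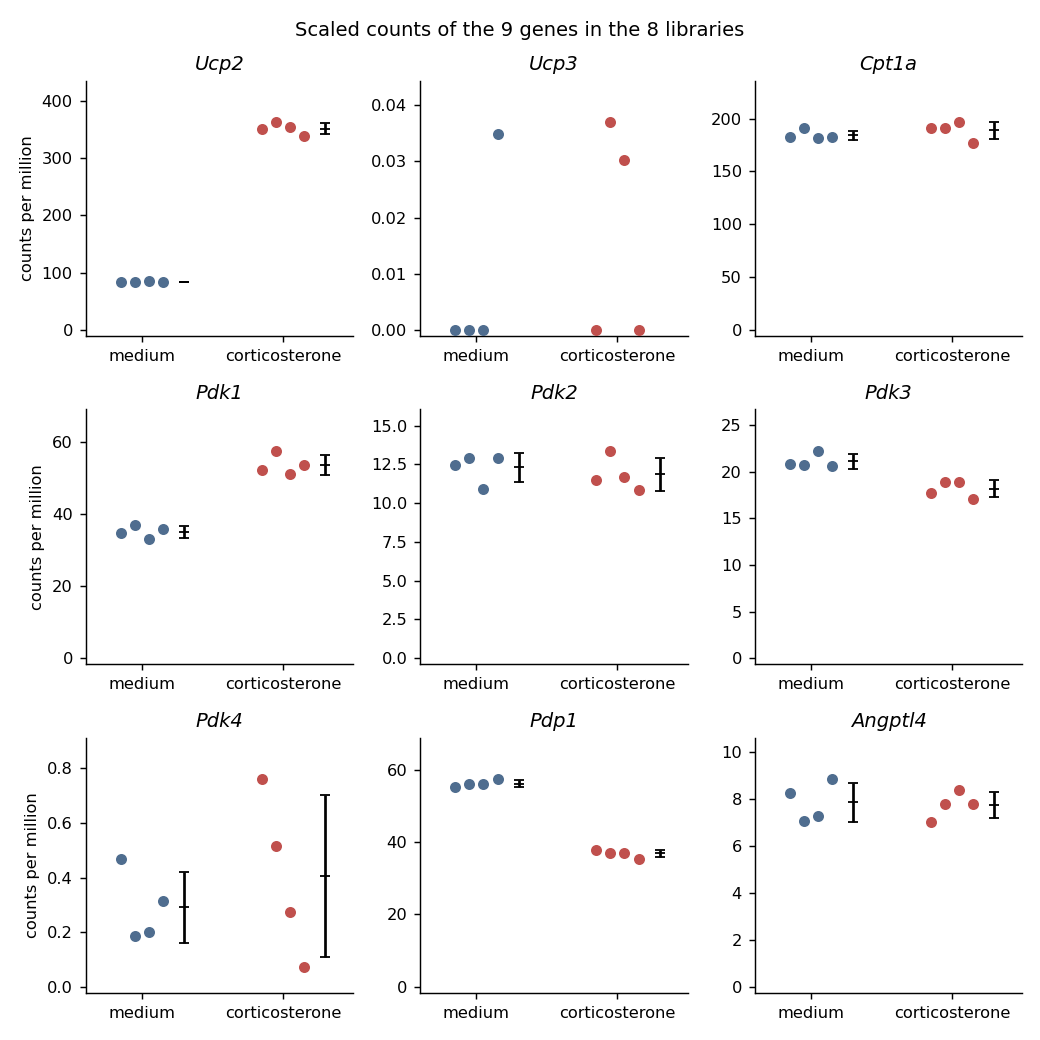
Scaled counts (CPM, vertical axes from 0) of the 9 genes in each library, with medium in blue and corticosterone in red; black bars give the mean ± SD of the 4 libraries of a group and are left out for Ucp3, which had 3 counts in all. Ucp2 stands at 339 to 363 CPM with corticosterone and at 83.0 to 84.5 CPM in medium, while the points of Pdk2, Cpt1a and Angptl4 overlap.

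Ucp2 was the member with the largest difference. In medium it stood at 83.0, 83.5, 84.5 and 83.6 CPM in replicates 1 to 4. With corticosterone it stood at 351, 363, 355 and 339 CPM. The lowest corticosterone library was thus far above the highest medium library, and the 4 medium libraries lay close together. The means were 352 ± 9.98 and 83.6 ± 0.616 CPM (SD, n = 4 each), a 4.21-fold difference with a log2 fold change of 2.07 (SE 0.025). The counts behind these values were 41989 in the corticosterone libraries and 10264 in the medium libraries. Of the 13272 tested genes, 159 had a larger log2 fold change. Without corticosterone replicates 1 and 2 the log2 fold change was 2.06.

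Ucp3, the muscle-type relative of Ucp2, was at the limit of detection. It had 1 estimated count in each of corticosterone replicates 2 and 3 and in medium replicate 4, and 0 in the other 5 libraries. Both groups were at or under a floor of 3 counts, so no fold is given. Ucp1, the brown-fat member, had 0 counts in all 8 libraries.

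Ucp2 and Ucp3 are neighbours on mouse chromosome 7 (GENCODE M21, GRCm38). Ucp3 spans chr7:100472990-100486432 and Ucp2 chr7:100493337-100502020, both on the plus strand, with 6904 bases between them. Dnajb13, a gene for a sperm-flagellum J-domain protein on the minus strand (chr7:100501716-100514960), overlaps the 3′ end of Ucp2 by 305 bases. Dnajb13 stood at 1.46, 1.44, 2.18 and 1.88 CPM with corticosterone and at 0.212, 0.221, 0.201 and 0.279 CPM in medium (log2 fold change 2.91, SE 0.25, adjusted p = 2.2e-06 by edgeR's quasi-likelihood test). Its corticosterone libraries were all above its medium libraries, and its CPM was 0.238% to 0.615% of that of Ucp2 in each library. The library kit keeps strand, but the strand setting of the counting is not given in the sources used here, and 3.86% of the 31-base words of Ucp2 transcripts also occur in Dnajb13, so a share of Dnajb13 counts cannot be told apart from Ucp2. The next protein-coding genes moved little. C2cd3, a centriole gene upstream of Ucp3, was lower by a small margin (log2 fold change -0.10, SE 0.033, adjusted p = 0.026), a call that was lost with DESeq2 (adjusted p = 0.055) and without corticosterone replicate 4 or medium replicate 1 or 2 (adjusted p = 0.079 to 0.088). On deposited TPM its log2 fold change was 0.06. Coa4, which codes for a mitochondrial assembly factor, and Mrpl48, which codes for a mitochondrial ribosomal protein, had log2 fold changes of 0.08 (SE 0.084) and 0.07 (SE 0.065) and did not pass the threshold.

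**Figure D2:**
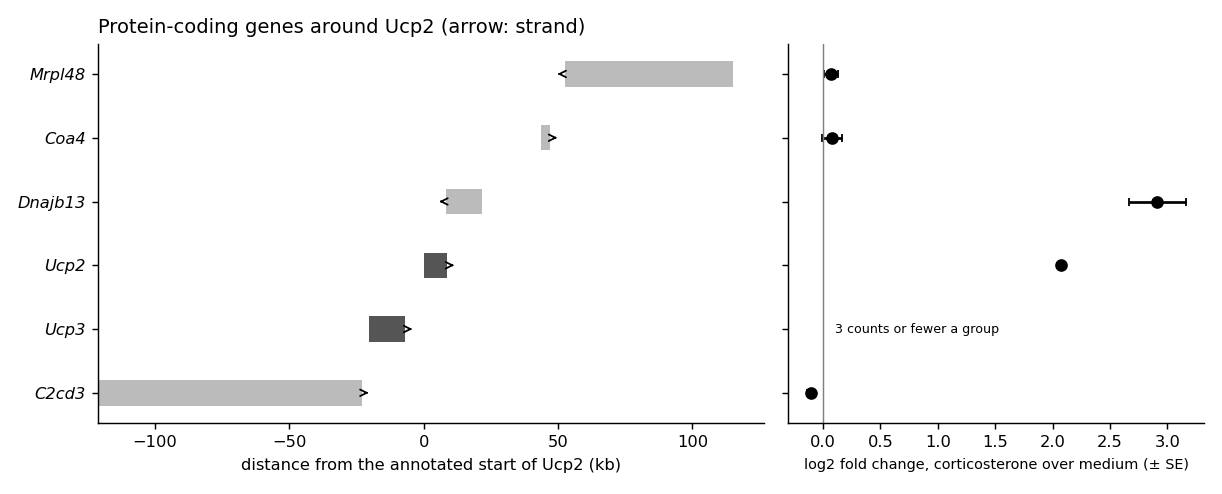
Left, protein-coding genes within 50 kb of Ucp2 and Ucp3, drawn by distance in kb from the annotated start of Ucp2, with arrows for strand; right, log2 fold change of each gene with its SE. Ucp2 (2.07) and the overlapping Dnajb13 (2.91) stand to the right, and C2cd3, Coa4 and Mrpl48 lie between -0.10 and 0.08.

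The promoter windows of this pair and of 2 kinases are shown because the neighbours Ucp2 and Ucp3, and the relatives Pdk1 and Pdk4, differ so widely in level in the same cells. Each is the RefSeq window of 300 bases on GRCm38.p6, from 250 bases before to 50 bases after the annotated start, written 5′ to 3′ along the gene with each CG dinucleotide in capitals.
Ucp2, chr7:100493108-100493407, plus strand: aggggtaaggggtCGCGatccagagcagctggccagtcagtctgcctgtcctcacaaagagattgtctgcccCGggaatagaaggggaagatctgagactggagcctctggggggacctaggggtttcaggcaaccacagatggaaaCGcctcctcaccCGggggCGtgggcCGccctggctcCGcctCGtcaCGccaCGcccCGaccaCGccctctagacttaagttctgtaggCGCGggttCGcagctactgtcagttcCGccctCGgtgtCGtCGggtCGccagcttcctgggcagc
Ucp3, chr7:100472741-100473040, plus strand: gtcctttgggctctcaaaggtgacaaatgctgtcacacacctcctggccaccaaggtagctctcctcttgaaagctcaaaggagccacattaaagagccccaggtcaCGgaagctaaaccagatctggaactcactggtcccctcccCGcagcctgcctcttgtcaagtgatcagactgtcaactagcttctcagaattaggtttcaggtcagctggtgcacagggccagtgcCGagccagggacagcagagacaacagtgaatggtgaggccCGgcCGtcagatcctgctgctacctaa
Pdk1, chr2:71872974-71873273, plus strand: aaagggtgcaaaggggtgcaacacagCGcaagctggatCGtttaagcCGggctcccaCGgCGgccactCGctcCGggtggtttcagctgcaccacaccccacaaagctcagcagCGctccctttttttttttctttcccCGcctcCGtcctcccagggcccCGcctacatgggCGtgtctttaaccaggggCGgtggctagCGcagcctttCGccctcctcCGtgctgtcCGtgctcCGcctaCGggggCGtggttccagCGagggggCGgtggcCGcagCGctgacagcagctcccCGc
Pdk4, chr6:5496229-5496528, minus strand: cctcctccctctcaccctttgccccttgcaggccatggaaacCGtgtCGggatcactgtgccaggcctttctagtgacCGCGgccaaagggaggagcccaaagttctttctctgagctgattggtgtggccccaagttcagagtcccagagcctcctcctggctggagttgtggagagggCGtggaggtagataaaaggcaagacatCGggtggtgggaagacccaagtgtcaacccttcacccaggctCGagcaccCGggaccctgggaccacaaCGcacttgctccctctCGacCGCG
The Ucp2 window held 21 CG dinucleotides and that of Ucp3 held 5. The Pdk1 window shown held 25 and that of Pdk4 held 12. Among all 32851 promoter windows the median was 7, with quartiles of 3 and 20, and 76.9% of windows held as many as Ucp2 or fewer. The count of CG dinucleotides was chosen after the levels had been seen. Windows were matched for 7 of the 9 members, with a second window for Pdk1 and for Pdk2, and Pdp1 and Angptl4 are named only. The other first windows held 22 (Cpt1a), 25 (Pdk2) and 35 (Pdk3). The second windows held 2 (Pdk1), fewer than the Pdk4 window, and 13 (Pdk2). On either strand, none of the 9 windows held the glucocorticoid receptor palindrome (GNACA, 3 bases of any kind, TGTNC), found in 0.475% of all windows. None held the PPAR direct repeat (AGGTCA, 1 base of any kind, AGGTCA; 0.0396% of all windows), the FOXO motif GTAAACA (3.65%) or the estrogen-related receptor (ERR) motif (TCA followed by the half-site AGGTCA; 0.423%). This says only that these letters are not in these windows.

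The Ucp2 counts came from few annotated transcripts. In medium, the coding transcripts Ucp2-202 (3988 bases) and Ucp2-210 (1116 bases) took 54.7% ± 2.4 and 40.1% ± 1.9 of the estimated counts (SD, n = 4). In corticosterone replicates 3 and 4 they took 53.4% and 54.3%, and 40.5% and 39.5%, inside the medium range of 52.1% to 57.3% for Ucp2-202. Those of Ucp2-210 also lay inside its medium range of 38.1% to 41.8%. In corticosterone replicates 1 and 2 the split was different: Ucp2-202 took 39.7% and 10.3%. In replicate 2, 2409 counts were on Ucp2-211, a processed transcript of 498 bases with no reading frame annotated, against 0, 305 and 246 in the other corticosterone libraries. Coding transcripts carried 69.6% of the Ucp2 counts in that library, 94.8% in replicate 1 and 96.4% to 98.1% in the other 6. These shifts were seen in the 2 libraries with the other effective length, and their cause was not tested. The gene-level counts of Ucp2 did not show these shifts, as the 4 corticosterone CPM lay between 339 and 363.

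**Figure D3:**
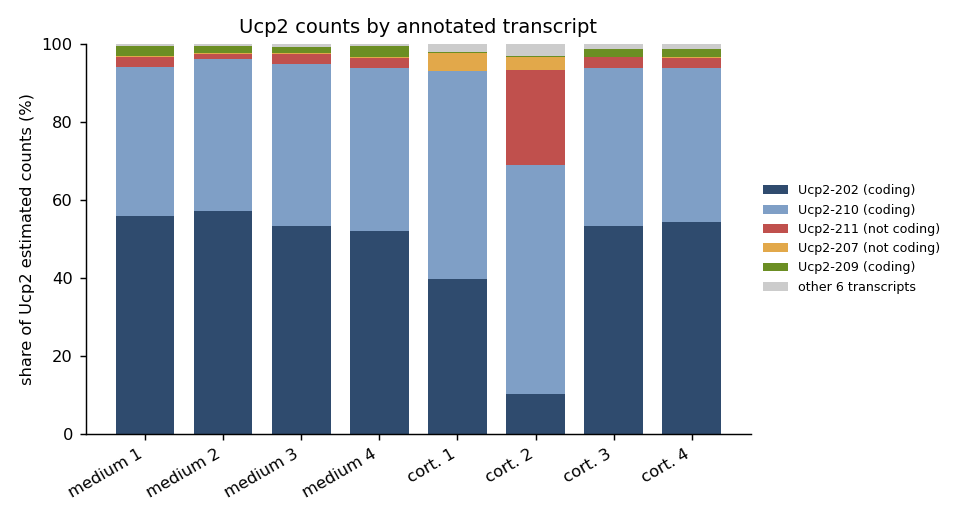
Share of the estimated counts of Ucp2 (%, vertical axis from 0 to 100) on each annotated transcript in the 8 libraries. The 4 medium libraries and corticosterone replicates 3 and 4 look alike, with Ucp2-202 between 52.1% and 57.3%, while corticosterone replicate 1 (39.7%) and replicate 2 (10.3%) differ from them.

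Of the other carriers of the list with Ucp2, 3 of the 5 tested (6 listed) rose and none fell. Their median log2 fold change was 0.08. Among all tested genes, 19.6% rose and 20.7% fell. The genes of this and the later lists were also chosen with earlier results of these data known, and up to 4 of each were named for the smallest p. The p-values of list genes are thus descriptive, and nothing is read from the list counts. Slc25a30, also called KMCP1, a relative of the uncoupling proteins, rose from 35.5 ± 0.983 to 44.8 ± 2.07 CPM (log2 fold change 0.33, SE 0.039, adjusted p = 3.3e-05), with no overlap between groups. Slc25a4 and Slc25a5, the main ADP/ATP carriers, rose by 0.09 (adjusted p = 0.011) and 0.08 (adjusted p = 0.041) on the log2 scale. Both of these small differences were lost without corticosterone replicates 1 and 2 (adjusted p = 0.063 and 0.22), and that of Slc25a5, whose groups overlapped, also without corticosterone replicate 1 or 2 or medium replicate 1, 2 or 4 alone (adjusted p = 0.073 to 0.11). Slc25a27 (UCP4), a neuronal relative, stood at 0.340 and 0.523 CPM and did not pass.

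Pdk1 was the kinase that was higher with corticosterone. It stood at 52.2, 57.5, 51.0 and 53.6 CPM with corticosterone and at 34.7, 36.9, 33.0 and 35.7 CPM in medium. The lowest corticosterone library was above the highest medium library. The means were 53.6 ± 2.82 and 35.1 ± 1.70 CPM, a 1.53-fold difference (log2 fold change 0.61, SE 0.046). Pdk1 is known as a target of hypoxia-inducible factor.

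Pdk3 moved the other way and by less. It stood at 17.7, 18.9, 18.9 and 17.1 CPM with corticosterone and at 20.8, 20.7, 22.2 and 20.6 CPM in medium. The groups did not overlap. The log2 fold change was -0.21 (SE 0.049), a 0.862-fold level. Pdk2, the most widely expressed kinase of the family, overlapped: 11.5, 13.4, 11.7 and 10.9 CPM with corticosterone against 12.5, 12.9, 10.9 and 12.9 CPM in medium (log2 fold change -0.06, SE 0.077).

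Pdk4, the kinase best known as a fasting and glucocorticoid gene in other tissues, had few counts. It had 24, 14, 9 and 2 counts with corticosterone and 22, 5, 4 and 9 counts in medium. These were 0.0722 to 0.760 CPM and 0.184 to 0.466 CPM, so the medium range lay inside the corticosterone range. The highest corticosterone values, 0.760 and 0.517 CPM, were those of replicates 1 and 2, the libraries with the other effective length. With 49 and 40 counts in all, Pdk4 did not pass the filter on low counts and was not tested.

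Pdp1, the phosphatase that activates pyruvate dehydrogenase, was lower with corticosterone. It stood at 37.9, 37.1, 37.1 and 35.4 CPM against 55.3, 56.2, 56.0 and 57.3 CPM in medium. Every corticosterone library was below every medium library. The means were 36.9 ± 1.03 and 56.2 ± 0.861 CPM, a 0.656-fold level (log2 fold change -0.61, SE 0.031). All 6 annotated Pdp1 transcripts are coding. In medium, Pdp1-204 and Pdp1-201 took 41.5% ± 5.1 and 21.5% ± 2.2 of the counts, and in corticosterone replicates 3 and 4 they took 41.2% and 33.8%, and 21.7% and 25.7%. In corticosterone replicate 1, 665 of the counts were on Pdp1-202, which had 0 to 33.4 counts in the other 7 libraries.

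Levels of different genes were compared per length, as TPM (transcripts per 1000000) with 1 effective length per transcript for all libraries. In medium the order was Ucp2 (99.98 ± 5.18 TPM), Cpt1a (63.8 ± 2.38), Pdp1 (34.8 ± 0.794), Pdk1 (18.8 ± 1.33), Pdk3 (16.1 ± 0.511), Pdk2 (8.77 ± 0.812), Angptl4 (6.90 ± 0.586), Pdk4 (0.129 ± 0.0557) and Ucp3 (SD, n = 4; Ucp3 at 0 in 3 of the 4 libraries). Neighbours in this order did not overlap among the 4 medium libraries. In corticosterone replicates 3 and 4, Ucp2 stood at 422 and 399 TPM, Pdk1 at 24.9 and 26.9 TPM, and Pdp1 at 22.3 and 21.7 TPM. Pdk1 thus stood above Pdp1 in both of these libraries and below it in all 4 medium libraries. Among tested genes, 1663 had a higher medium level per length than Ucp2, and 346 had a higher mean level in corticosterone replicates 3 and 4.

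**Figure D4:**
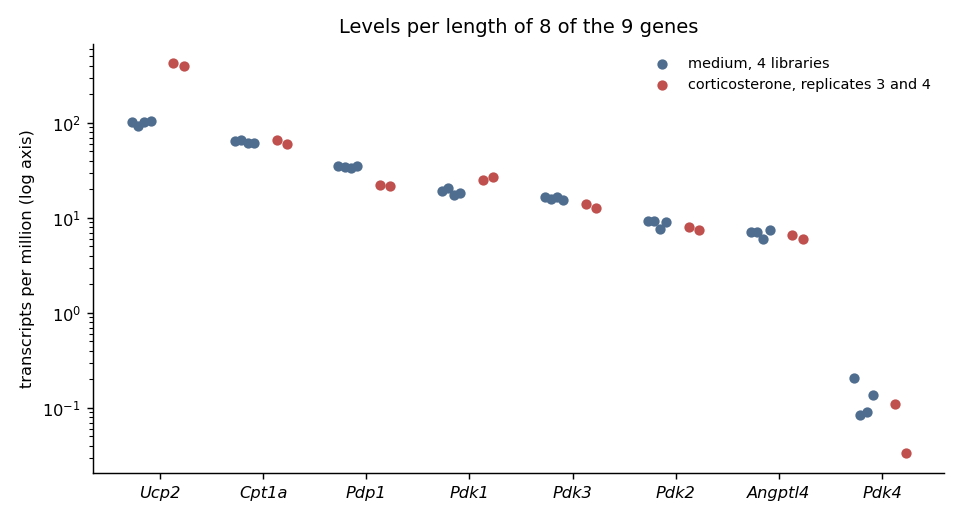
Level per length (TPM, log axis) of 8 of the 9 genes, with the 4 medium libraries in blue and corticosterone replicates 3 and 4 in red; Ucp3, at 0 in most libraries, is left out. Ucp2 is at the top in both groups, Pdk1 (24.9 and 26.9 TPM) passes Pdp1 (22.3 and 21.7 TPM) with corticosterone, and Pdk4 lies at or below 0.205 TPM.

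Within the kinase family, Pdk1 made up 42.8% ± 1.4 of the summed per-length level in medium, Pdk3 36.9% ± 2.1, Pdk2 18.2% to 21.1% and Pdk4 0.293% ± 0.12. In corticosterone replicates 3 and 4, Pdk1 made up 52.9% and 57.2%, and Pdk3 29.7% and 26.8%. The summed level of the 4 kinases was 41.5 to 45.5 TPM in medium and 47.0 and 47.1 TPM in these 2 libraries. The ratio of Pdp1 to the summed kinases was 0.762 to 0.823 in medium and 0.475 and 0.4601 in corticosterone replicates 3 and 4. This ratio leaves out Pdp2, the other phosphatase gene. Pdp2 stood at 8.43 ± 0.437 CPM with corticosterone and 8.24 ± 0.837 CPM in medium (log2 fold change 0.03, SE 0.081) and did not pass. Only part of the Pdk1 counts lay on its coding transcript: 52.1% ± 2.8 in medium were on Pdk1-201 (5185 bases), with 53.4% and 53.5% in corticosterone replicates 3 and 4. Most of the rest was on Pdk1-208, a processed transcript of 2972 bases. In corticosterone replicates 1 and 2 the coding share was 39.0% and 40.2%.

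Among the genes that handle pyruvate, Pdha1 and Pcx rose and Pdhb fell. Of 11 tested genes of pyruvate entry and pyruvate dehydrogenase (12 listed), 2 rose, 1 fell and 8 did not pass, with a median log2 fold change of 0.0047. Among all tested genes, 19.6% rose and 20.7% fell. Pdha1, the subunit that the kinases phosphorylate, rose from 120.0 ± 1.47 to 149 ± 2.65 CPM (log2 fold change 0.31, SE 0.022, adjusted p = 5.0e-07 by edgeR's quasi-likelihood test). Its partner Pdhb fell by 0.15 (SE 0.032, adjusted p = 0.0029). Pcx, pyruvate carboxylase, which feeds pyruvate into the cycle by the other route, rose from 34.0 ± 1.43 to 52.8 ± 3.14 CPM (log2 fold change 0.64, SE 0.047, adjusted p = 6.3e-07). For all 3 genes the groups did not overlap in CPM. The Pdhb difference was -0.0019 (adjusted p = 0.99) on deposited TPM and -0.032 (adjusted p = 0.93) on TPM with 1 effective length, both tested with limma on log2(TPM + 1). With 1 effective length, Pdha1 (0.05, adjusted p = 0.81) and Pcx (0.23, adjusted p = 0.32) did not pass either. On deposited TPM without corticosterone replicates 1 and 2, a choice made after seeing the data, all 3 genes kept their calls. The pyruvate carrier gene Mpc2 had a log2 fold change of 0.04 (SE 0.046) and did not pass.

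Cpt1a, which makes acylcarnitines at the outer membrane, stood at 191, 191, 196 and 177 CPM with corticosterone and at 183, 191, 182 and 183 CPM in medium. The groups overlapped, with the lowest value of all in corticosterone replicate 4. The means were 189 ± 8.21 and 184 ± 4.23 CPM (log2 fold change 0.04, SE 0.032). Without corticosterone replicate 4 the log2 fold change was 0.07 and past the threshold. At least 99.2% of the Cpt1a counts were on the transcript Cpt1a-201 in each library.

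Of the 13 tested genes of the carnitine system and fatty acid activation (14 listed), 3 rose and 5 fell. Their median log2 fold change was -0.12. Among all tested genes, 19.6% rose and 20.7% fell. Acsl4, an acyl-CoA synthetase that prefers arachidonic acid, rose from 71.5 ± 2.86 to 105 ± 1.12 CPM (log2 fold change 0.55, SE 0.030, adjusted p = 5.4e-08). Cpt2, the inner-membrane partner of Cpt1a, rose by 0.23 (SE 0.040, adjusted p = 0.00068), and Slc22a5, the carnitine importer OCTN2, rose by 0.39 (SE 0.080, adjusted p = 0.0021). Slc27a1, the fatty acid transport protein FATP1, fell from 14.6 ± 1.17 to 9.67 ± 1.10 CPM (log2 fold change -0.59, SE 0.087, adjusted p = 0.00019). The count of 5 lower genes was 3 with DESeq2, with no filter on low counts, and when corticosterone replicate 4 or medium replicate 1, 2 or 4 was left out.

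Beta-oxidation genes split between both directions with small changes. Of 16 tested genes (16 listed), 7 rose, 4 fell and 5 did not pass, and no log2 fold change was outside -0.23 to 0.22. The same rule gave 19.6% higher and 20.7% lower among all tested genes. Hadh, the dehydrogenase for short-chain hydroxyacyl-CoA, rose from 62.4 ± 0.807 to 72.7 ± 2.76 CPM (log2 fold change 0.22, SE 0.031, adjusted p = 0.00014). Etfdh, which passes electrons from the acyl-CoA dehydrogenases to ubiquinone, rose by 0.15 (adjusted p = 0.00087). Acads, the short-chain acyl-CoA dehydrogenase, fell by 0.23 (SE 0.030, adjusted p = 8.0e-05), and Etfa, a subunit of the electron transfer flavoprotein, fell by 0.16 (adjusted p = 0.0026). With a term for corticosterone replicates 1 and 2 in the fit, 4 genes of the list were higher. Leaving out corticosterone replicate 1 or 4, or medium replicate 2 or 4, left 2 genes lower.

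Of the 9 tested genes that set malonyl-CoA and AMPK, the energy-sensing kinase (10 listed), 3 rose and 1 fell. Among all tested genes, 19.6% rose and 20.7% fell. Acacb, the acetyl-CoA carboxylase at the mitochondrial surface whose malonyl-CoA inhibits CPT1, rose from 27.5 ± 1.15 to 37.0 ± 2.21 CPM (log2 fold change 0.43, SE 0.048, adjusted p = 2.5e-05), with no overlap in CPM. In limma on log2(TPM + 1) this call was lost. The Acacb difference was 0.12 (adjusted p = 0.63) on deposited TPM and -0.11 (adjusted p = 0.77) with 1 effective length. On deposited TPM without corticosterone replicates 1 and 2 it was 0.20 (adjusted p = 0.33). Prkab2, a regulatory AMPK subunit, rose from 5.52 ± 0.340 to 8.37 ± 0.774 CPM (log2 fold change 0.60, SE 0.084, adjusted p = 0.00014). Prkag1, another AMPK subunit, rose by 0.09 (adjusted p = 0.032), a call lost with DESeq2 (adjusted p = 0.082) and without corticosterone replicate 1, 3 or 4 or medium replicate 3 or 4 (adjusted p = 0.056 to 0.085). Stk11, the AMPK-activating kinase LKB1, fell by 0.10 (adjusted p = 0.0065).

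**Figure D5:**
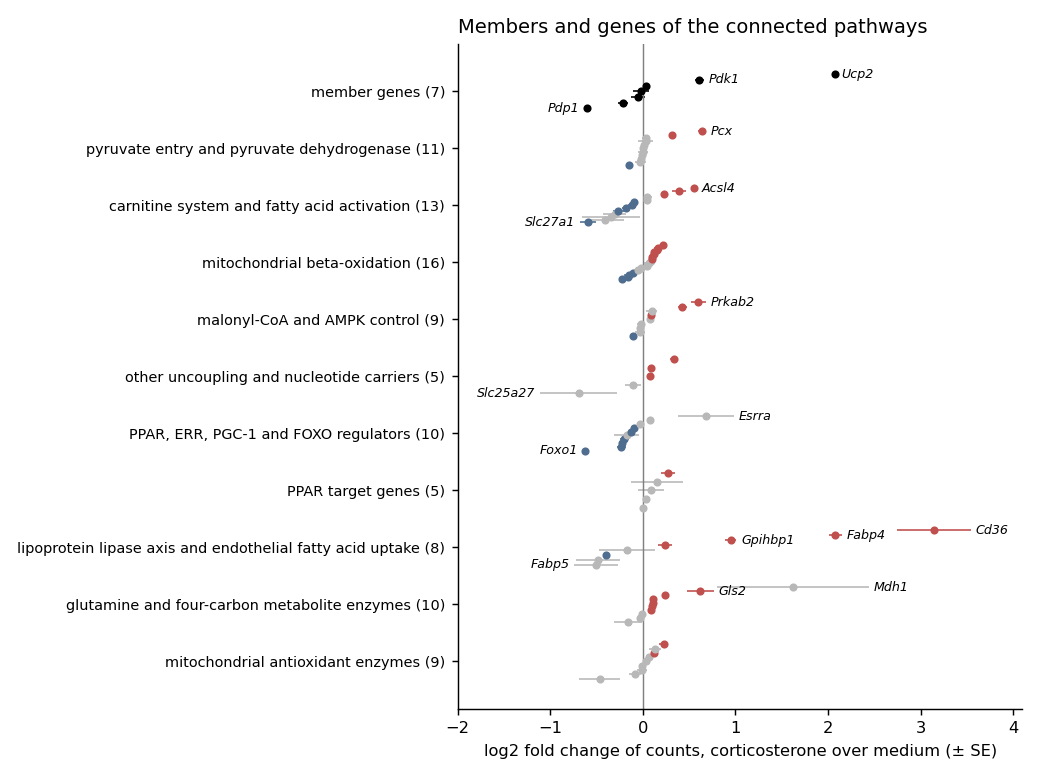
Log2 fold change of counts, corticosterone over medium, with SE, for the 7 tested member genes (black) and the tested genes of the 10 pathway lists (number tested in brackets); red rose, blue fell and grey did not pass. Most points lie close to 0, with Ucp2 (2.07), Fabp4 (2.08), Cd36 (3.15) and Mdh1 (1.62, did not pass) far to the right. Slc25a27 (-0.69, did not pass), Foxo1 (-0.63), Pdp1 (-0.61) and Slc27a1 (-0.59) lie to the left.

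Angptl4 stood at 7.03, 7.79, 8.40 and 7.80 CPM with corticosterone and at 8.27, 7.07, 7.29 and 8.85 CPM in medium. The ranges overlapped, with the highest and the second-lowest value both in medium. The means were 7.76 ± 0.564 and 7.87 ± 0.837 CPM (log2 fold change -0.02, SE 0.088). Most Angptl4 counts, 73.5% to 91.8% in each library, were on Angptl4-202 (1859 bases), which is annotated as a target of nonsense-mediated decay. The coding transcript Angptl4-201 took 8.2% to 25.1%.

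Angptl4 acts on lipoprotein lipase at the capillary wall. Some genes of that axis and of endothelial fatty acid uptake differed more than Angptl4 itself. Of 8 tested genes (11 listed), 4 rose, 1 fell and 3 did not pass, with a median log2 fold change of 0.03. The same rule gave 19.6% higher and 20.7% lower among all tested genes. Gpihbp1, the endothelial protein that carries lipoprotein lipase to the vessel lumen, rose from 12.1 ± 0.512 to 23.4 ± 1.81 CPM (log2 fold change 0.95, SE 0.061, adjusted p = 2.0e-07). Fabp4, a fatty acid binding protein of fat and endothelium, rose from 5.45 ± 0.502 to 22.9 ± 1.04 CPM (log2 fold change 2.08, SE 0.070, adjusted p = 8.1e-10). Cd36, a fatty acid uptake receptor, rose from a very low level: 25, 16, 32 and 18 counts with corticosterone against 2, 2, 2 and 4 counts in medium (log2 fold change 3.15, SE 0.40, adjusted p = 5.1e-05). Vldlr, a receptor for lipoprotein particles, fell from 147 ± 3.22 to 111 ± 4.86 CPM (log2 fold change -0.40, SE 0.032, adjusted p = 1.5e-06). For these 4 genes no corticosterone library overlapped a medium library. Lpl itself stood at 1.13 ± 0.373 and 1.22 ± 0.475 CPM and did not pass. Fabp5, named after its values were seen, varied from 24.9 to 56.3 CPM with corticosterone against 54.9 to 60.2 CPM in medium and did not pass (log2 fold change -0.50, SE 0.24). Without corticosterone replicates 1 and 2 it passed in the lower direction (adjusted p = 8.6e-07), which made 2 lower genes in the list. That count was also reached when corticosterone replicate 1 or 2 alone was left out. The 4 adipocyte markers were checked because Fabp4 and Cd36 are also fat-cell genes. They summed to 0.0950 to 0.325 CPM with corticosterone and 0.147 to 0.523 CPM in medium. Of these, 2 (Cidec and Lep) were at 0 counts in all 8 libraries.

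In the fit over all 8 libraries no gene on a list of PPAR, ERR, PGC-1 and FOXO regulators passed in the higher direction. Of 10 tested PPAR, ERR, PGC-1 and FOXO genes (15 listed), 6 fell and 4 did not pass, with a median log2 fold change of -0.15. Among all tested genes, 19.6% rose and 20.7% fell. Foxo1, a forkhead factor known to act on Pdk4 in fasting, fell from 156 ± 5.01 to 101 ± 1.06 CPM (log2 fold change -0.63, SE 0.027, adjusted p = 5.4e-09), with no overlap. Rxra, the partner receptor of the PPARs, and Pparg fell by 0.23 each (adjusted p = 5.1e-05 and 0.0032), and Foxo3 fell by 0.13 (adjusted p = 0.0022). Ppard, a widely expressed PPAR, stood at 47.9 ± 2.11 and 48.8 ± 1.42 CPM (log2 fold change -0.03, SE 0.038) and did not pass. Ppara and the coactivator Ppargc1a had at most 3 counts in any library. Esrra, named after its values were seen, passed the threshold in the higher direction with DESeq2 (adjusted p = 0.0496) and without corticosterone replicate 4 (adjusted p = 0.0498), and had its highest values in corticosterone replicates 1 and 2 (3.01 and 4.40 CPM, against 2.09 and 1.84 in replicates 3 and 4 and 1.25 to 2.35 in medium). Rxrb, a related receptor, passed it without corticosterone replicate 3 (adjusted p = 0.049). Of the 5 tested PPAR target genes (9 listed), 1 rose, beside 19.6% of all tested genes, and none fell. The gene that rose was Acot2, a mitochondrial thioesterase (log2 fold change 0.27, SE 0.078, adjusted p = 0.015), with no overlap between groups. Acaa1a (0.03, SE 0.032), Pex11a (0.09, SE 0.14) and Acot1 (0.15, SE 0.28) had log2 fold changes that did not pass. Nr3c1, the glucocorticoid receptor, fell by 0.34 (SE 0.033, adjusted p = 7.3e-06).

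Of 10 tested enzymes of glutamine, malate and aspartate, the substrates linked to UCP2 (10 listed), 6 rose, none fell and 4 did not pass, with a median log2 fold change of 0.10. Of all tested genes, 19.6% were higher by the same rule. The count of 6 went to 3 with a term for corticosterone replicates 1 and 2 in the fit. It went to 2 on deposited TPM, to 1 on deposited TPM without those 2 libraries and to 0 on TPM with 1 effective length. Got1, the cytosolic aspartate aminotransferase, rose from 47.7 ± 0.612 to 56.4 ± 0.834 CPM (log2 fold change 0.24, SE 0.026, adjusted p = 1.9e-05). Gls2, a glutaminase, rose from 2.54 ± 0.319 to 3.88 ± 0.703 CPM (log2 fold change 0.62, SE 0.15, adjusted p = 0.0052). Mdh2 and Got2, the mitochondrial malate dehydrogenase and aspartate aminotransferase, rose by 0.11 (adjusted p = 0.0060) and 0.09 (adjusted p = 0.014). The Got2 call was lost without corticosterone replicates 1 and 2 (adjusted p = 0.11). With the term, the calls of Got2 (adjusted p = 0.12), Mdh2 (adjusted p = 0.055) and Gls2 (log2 fold change 0.39, adjusted p = 0.051) were lost. Mdh1, named after its values were seen, stood at 15.9 and 39.7 CPM in those 2 libraries and at 3.20 to 8.84 CPM in the other 6, and did not pass.

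Mitochondrial antioxidant enzymes, listed because UCP2 is often discussed with reactive oxygen species, changed little: 2 of 9 tested (10 listed) rose and none fell. Among all tested genes, 19.6% rose and 20.7% fell. Txn2, the mitochondrial thioredoxin, rose by 0.23 (SE 0.048, adjusted p = 0.0027), and Sod2, the mitochondrial superoxide dismutase, by 0.12 (SE 0.038, adjusted p = 0.022), with overlap between groups for Sod2. The Sod2 call was lost without corticosterone replicate 2 or 3 or medium replicate 1, 3 or 4 (adjusted p = 0.054 to 0.067). Txnrd2, the mitochondrial thioredoxin reductase, and Prdx3, a mitochondrial peroxiredoxin, had log2 fold changes of 0.13 (SE 0.062, adjusted p = 0.11) and 0.06 (SE 0.030, adjusted p = 0.13). Prdx3 passed without corticosterone replicates 1 and 2 (adjusted p = 0.036), without replicate 1 alone (adjusted p = 0.040) and with the added term (adjusted p = 0.048). Gpx4, a lipid peroxidase named after its values were seen, stood at 139 and 103 CPM in corticosterone replicates 1 and 2, at 195 and 199 CPM in replicates 3 and 4 and at 210.0 to 229 CPM in medium. It did not pass over all 8 libraries and passed in the lower direction without corticosterone replicates 1 and 2 (adjusted p = 0.0022). Over all 10 lists, 49 of 96 tested genes (51.0%) passed, 31 higher and 18 lower, beside 40.2% of all tested genes. Nothing is read from this count, since earlier results were known when these genes were chosen. Their median log2 fold change was 0.03, and 3 of them had a fitted fold of at least 2 in either direction, among them Mdh1, which did not pass. On deposited TPM in limma, the calls of Acads, Etfa, Etfdh, Cpt2, Stk11, Prkag1, Slc25a30, Slc25a4, Slc25a5, Foxo3, Rxra, Pparg, Acot2, Vldlr, Mdh2, Got2, Txn2 and Sod2 were also lost. With 1 effective length in limma, those of Acsl4 (adjusted p = 0.15), Slc22a5 (0.46), Prkab2 (0.18), Got1 (0.35) and Gls2 (0.076) were lost, among others. In limma on deposited TPM without corticosterone replicates 1 and 2, losses included Slc22a5 (adjusted p = 0.070), Prkab2 (0.051) and Gls2 (0.0997).

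The genes whose log2 CPM followed that of Ucp2 most closely over the 8 libraries were P4ha2 (Pearson r = 0.9998), a collagen prolyl hydroxylase, Plxna2 (0.9997), a semaphorin receptor, Ace (0.9995), the angiotensin-converting enzyme, Hhipl1 (0.9995) and Fkbp5 (0.9994), a cochaperone of the glucocorticoid receptor. With 4 libraries in each of 2 well separated groups, such values measure mainly the gap between the groups. An r of at least 0.99 was reached by 296 of 11305 genes (2.62%). Hhipl1 stood at 42.7 ± 0.552 and 3.20 ± 0.182 CPM and Ace at 663 ± 23.5 and 90.6 ± 3.63 CPM. Pdk4 had too few counts for the same comparison.

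Among markers of other cell types, the fibroblast list differed between the groups: its summed level was 5.74 to 6.69 CPM with corticosterone and 19.9 to 21.9 CPM in medium. Most of it was Pdgfra, named after its values were seen, at 4.73 to 5.02 and 17.1 to 19.6 CPM. The fibroblast genes Dcn and Lum stayed at or below 0.0517 CPM in the mean of either group. The list also held Col1a1 and Col1a2, whose values are not given here, and 2 of its 5 genes had enough counts to be tested. The part of this difference in the values above was not tested.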

How the data were processed

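RNA of 8 bEnd3 samples was sequenced as poly(A)-selected, directional libraries, per the labels' protocols. The submitters' processing notes name bcl2fastq, kallisto 0.46.1 and the builds mm10 and GRCm38. Not given in the sources used here are the kallisto index, the strand option and how transcripts were summed to genes. The authors deposited a gene table of estimated counts, which were rounded to whole numbers here, and per-library tables with, per the file headers, an estimated count, an effective length and a TPM for each of 119414 transcripts. Transcripts were joined to genes by GENCODE M21, which matched 97.3% of them.

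Genes kept by filterByExpr (13272 of 35852) were fitted with edgeR 4.0.16 in R 4.3.3, with TMM scaling, the group as the single term, the robust quasi-likelihood F test and Benjamini-Hochberg adjustment over all tested genes at 0.05. CPM are counts per 1000000 of the scaled library. Each SE was taken from the log2 fold change and its F statistic. The test was checked on simulated counts. DESeq2 1.42.0 and limma 3.58.1, on log2(TPM + 1), served as alternatives. Totals of 1.97e+07 to 4.62e+07 counts limit the precision for genes with few counts, and without molecular identifiers PCR copies of a molecule cannot be told apart. Levels per length divide estimated counts by 1 effective length per transcript, its median over the 6 libraries of equal processing. Promoter windows are from RefSeq on GRCm38.p6.

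The members and the 10 pathway lists, with 113 genes from general knowledge, were chosen with earlier results of these data known. Named were the members, the 4 tested genes of each list with the smallest p (all where fewer were tested), 13 genes fixed by name, protein-coding neighbours of Ucp2 and Ucp3 within 50 kb, and the 5 genes (group mean of at least 1 CPM, predicted genes left out) with the highest correlation with Ucp2. The same rule for Pdk4 gave no genes, since Pdk4 was not tested. 1 more PPAR target gene, in none of the list counts, is not reported here. Nnt was left out because its symbol stood on 2 rows. Other genes are said to be named after their values were seen. Same-numbered libraries of the groups did not deviate together more than others, so replicate numbers were not used as pairs in the main fit. With 4 libraries in a group, this cannot exclude a pairing.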

Additional observations from a re-analysis of the deposited data

Results flagged for a closer look

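In groups of 4 libraries, a library was singled out where its gap to the nearest other library was, relative to the group's range, above Dixon's 95% critical value; chance does so in about 1 in 20 groups, and it happened in 4 of 127 groups here. Among the members, Pdk3 stood at 22.2 CPM in medium replicate 3, against 20.6 to 20.8 CPM in the other medium libraries. Cpt1a stood at 190.7 CPM in medium replicate 2, against 182 to 183 CPM in the others. Of the pathway genes, Hadh stood at 61.2 CPM in medium replicate 1, against 62.7 to 62.9 CPM, and Sod2 at 54.2 CPM in medium replicate 2, against 49.6 to 50.2 CPM.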

How the results depend on the processing

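Under the 17 alternatives that used counts (other scaling, DESeq2, other filters, transcript sums, each library left out, corticosterone replicates 1 and 2 left out or given a term, and the replicate block), 2 members stayed lower and 2 higher, except that Cpt1a joined the higher ones without corticosterone replicate 4. Leaving out each library in turn gave 2359 to 2551 genes higher and 2414 to 2609 lower, 26 to 30 pathway genes higher and 14 to 18 lower, 2 to 3 members higher, and log2 fold changes of 0.0167 to 0.0707 for Cpt1a. The replicate block gave 2375 higher and 2505 lower and a log2 fold change of 2.07 for Ucp2. Deviations from the group means had same-number correlations of -0.053 to 0.030, against -0.10 to 0.15 for other pairs. With 4 libraries in a group, this cannot exclude a pairing. The alternatives on TPM changed more. Deposited TPM in limma gave 1048 genes higher and 651 lower (61.7% of calls higher, against 48.6% with counts), 1 member lower, 11 pathway genes higher and 2 lower. TPM with 1 effective length gave 377 higher and 818 lower (31.5% higher), 1 member higher, 1 lower, 3 pathway genes higher and 4 lower, with a median log2 fold change of -0.15 over all genes. Deposited TPM without corticosterone replicates 1 and 2, a choice made after seeing the data, gave 1270 higher and 1581 lower, 10 pathway genes higher, and 2 members in each direction. Pdk1 had 0.40 with 1 effective length, and Pdk3 had -0.15 and -0.38 on deposited TPM and with 1 effective length, all past no threshold. Signs turned with 1 effective length for Hadh (-0.0391), Etfdh (-0.0815), Acacb (-0.11), Prkag1 (-0.0814), Slc25a4 (-0.13) and Slc25a5 (-0.17), and on deposited TPM for Stk11 (0.00092) and C2cd3 (0.0627). The cause was not tested. Of 1078 values of the named genes other than the members under 20 alternatives, 974 kept their side of the threshold and direction. Low counts limit the precision for Pdk4, Ucp3, Cd36 and Ppara.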
